A study of Mus musculus with 11 samples.

Results

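Alveolar macs (AMs) from the Zeb2KO lung library were split by how much of their RNA came from S100a8, and the cells with much S100a8 were compared with those with little across all genes. The cells were chosen by their measured share of S100a8, so differences in S100a8 itself are no finding. A cell was called S100a8-high when S100a8 held 0.3% or more of its unique molecular identifiers (UMIs, each tagging 1 captured mRNA molecule), and S100a8-low when it held under 0.1%. Of the 6583 cell barcodes of this library, 4077 were high, 2080 were low and 426 lay in between and were left out. The whole series held 51712 barcodes.

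The study deleted the transcription factor ZEB2 in macs of 5 tissues and profiled sorted single cells in droplets on the 10x Genomics platform, which counts the 3′ ends of transcripts. The 11 libraries of the series were 1 Zeb2KO and 1 WT library from each of lung, liver, brain, colon and spleen, and 1 further WT liver library with loxP-flanked Nr1h3 alleles. The lung cells were live CD45+CD64+F4/80+CD11c+SiglecF+ cells from C57Bl/6 mice, 6 to 8 weeks old in general, of both sexes in the study as a whole, with littermates as controls. WT here means Zeb2fl/fl mice without CRE, so both lung groups carried loxP-flanked Zeb2 alleles and only the Zeb2KO group also carried a CRE transgene. The labels give the genotype of the Zeb2KO lung library as Fcgr1-crexZeb2fl/fl. The study's results, figure legends and methods all name Itgax-cre for AMs instead, and Fcgr1-cre for spleen, brain and colon. Itgax-cre is also active in other CD11c-expressing cells. Which of these applied could not be settled. How many animals were pooled is not given in the sources used here.

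AMs live in the air spaces of the lung, where they take up inhaled particles and surfactant lipid. S100A8 and S100A9 form calprotectin, a calcium- and metal-binding complex best known as an abundant cytosolic protein of neutrophils and released during inflammation. ZEB2 is a repressor known from epithelial to mesenchymal transition, in which it binds E-box sequences in the promoters of epithelial genes, and EpCAM is a cell surface protein of epithelia.

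The share of S100a8 in a cell's UMIs spread over a wide range with a dip between its low and high ends. After a filter on depth, detected genes and mitochondrial UMIs, 3909 high, 381 in-between and 1986 low cells were left, and the levels and ratios below rest on these. Over the high cells the S100a8 share had a median of 1.68% and reached 10.7%, and over the low cells the median was 0.0384%, with 328 low cells without an S100a8 UMI. Before that filter, high cells made up 61.9% of barcodes (exact binomial 95% interval 60.7 to 63.1) and low cells 31.6% (30.5 to 32.7). These intervals, like all others here, cover counting error only, since each genotype had 1 library and the 2 classes came from the same library.

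Among all barcodes, unfiltered, the same rule found 0 high cells among 7703 WT AMs, which allows a share of up to 0.0479% (exact binomial), and 11 among the 45129 barcodes of the other 10 libraries together. The Zeb2KO AM library shared 23 to 76 barcode sequences with each other library, 76 of them with WT AMs. Of these shared barcodes, 7 (9.21%) held an S100a8 UMI in the WT library, against 7.22% of all WT AM barcodes.

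Depth differed between the classes. High cells had a median of 6587 UMIs and 2101 genes, low cells 4005.5 UMIs and 1654 genes, and WT AMs 3586 UMIs and 1639 genes. Mitochondrial UMIs were at 4.15%, 4.0% and 3.30% at the median. The in-between cells were the shallowest, at 3219 UMIs, and at that depth a few UMIs decide the class: the 199 cells just inside the low bound (0.08 to 0.1%) and the 116 just outside it (0.1 to 0.12%) both held a median of 3 S100a8 UMIs. At the high bound, the 38 cells just inside (0.3 to 0.35%) held 404 CPM (counts per 1000000 UMIs) of Epcam and 313 of Tmsb10, and the 32 just outside (0.25 to 0.3%) held 268 and 488 CPM.

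**Figure D1:**
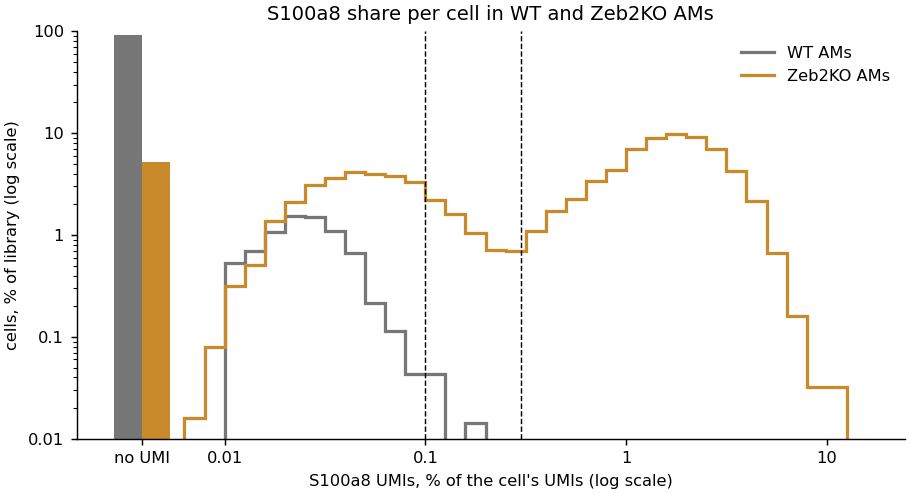
Share of S100a8 in the UMIs of each filtered cell (x axis, % on a log scale, cells without a UMI at the left as bars) against the percentage of cells of the library (y axis, log scale), for 6993 WT (grey) and 6276 Zeb2KO AMs (orange), with the bounds of 0.1% and 0.3% as dashed lines. No S100a8 UMI was seen in 92.4% of WT and 5.23% of Zeb2KO AMs, and only the Zeb2KO AMs have cells right of 0.3%.

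To see how many genes differed between the classes, UMIs were summed over the cells of a class and scaled to CPM, and a gene was called when the log2 ratio of CPM plus 1 (high over low) was at least 1 in size. Of 5499 genes with at least 20 CPM in the higher class, 452 were called (8.22%), 195 higher (3.55%) and 257 lower (4.67%) in high cells. No test was made, because the classes were cut from the cells of 1 library by the level of S100a8, and any gene whose level goes with S100a8 differs by construction. The values below therefore describe these cells. A gene was considered when either class reached 20 CPM. List members that passed only through the class where they were higher make the list counts below partly built in. The median log2 ratio of all 5499 genes was -0.23. S100a8 and S100a9 together took 3.22% of all UMIs of high cells and 0.0725% of those of low cells. Under TMM factors (a trimmed mean scaling) the CPM ratio of high to low was 0.29 higher on the log2 scale before 1 CPM was added, and the calls were 315 higher and 132 lower, 70.5% of them higher, against 43.1% by total UMIs.

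**Figure D2:**
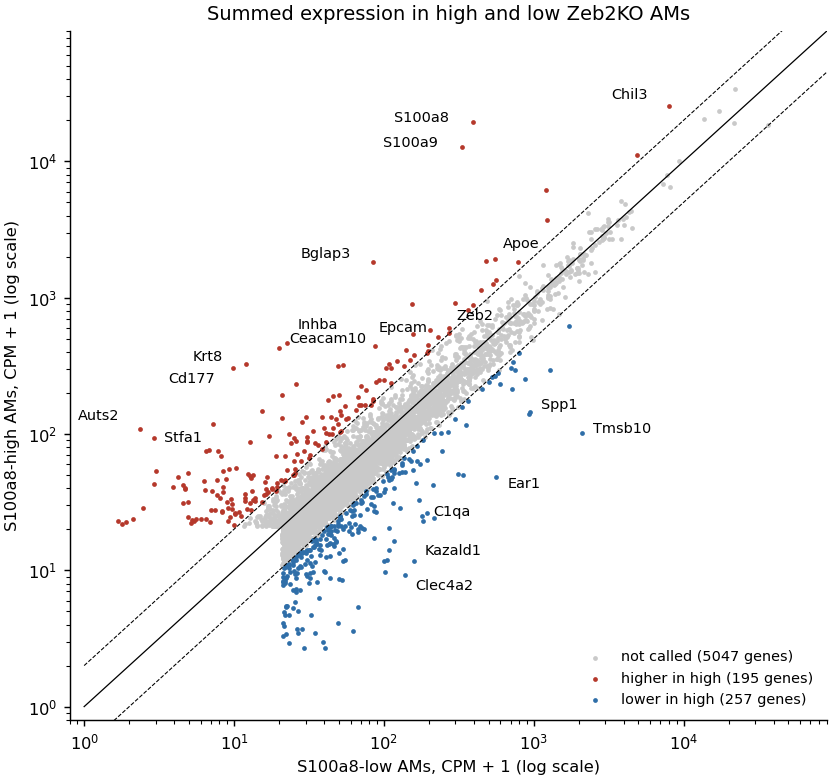
Summed expression of each of the 5499 genes considered in S100a8-low (x axis) and S100a8-high Zeb2KO AMs (y axis), both as CPM plus 1 on log scales, with the line of equality and dashed lines at a log2 ratio of 1 in either direction. Genes called higher (red, 195) include S100a8, S100a9, Bglap3, Krt8 and Epcam far above the line, and genes called lower (blue, 257) include Tmsb10, Ear1 and Kazald1 far below it.

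The 3 marker genes were all highest in high cells. S100a8 (chromosome 3: 90668978-90670035, plus strand, mm10) stood at 19437 CPM (19384 to 19489.6) in high cells, 1688 in between, 394 (381 to 407) in low cells and 22.8 in WT AMs. This gene set the classes, so its difference is the rule itself. Its partner S100a9, which lies close by (chromosome 3: 90692632-90695721, minus strand), stood at 12752 CPM (12709.6 to 12795) in high cells, 1856 in between and 331 (319.6 to 344) in low cells, with 1 UMI in all WT AMs. Over single high cells the S100a9 share ran from 0.459% (percentile 10) to 2.15% (percentile 90), and over low cells from 0 to 0.082%. Epcam (chromosome 17: 87635979-87651129, plus strand) stood at 438 CPM (431 to 446) in high cells, 210.0 in between, 86.7 (80.7 to 93.04) in low cells and 23.99 (22.2 to 25.9) in WT AMs. High cells thus held 5.06 times the Epcam of low cells, a log2 ratio of 2.32.

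Because high cells were deeper, the share of cells with a UMI was compared after each cell was thinned to 2000 UMIs, which left out 9 high, 59 low and 240 WT cells below that depth. Epcam was then seen in 55.3% (53.7 to 56.8) of high, 27.2% (22.5 to 32.3) of in-between, 12.1% (10.7 to 13.6) of low and 4.38% (3.91 to 4.90) of WT cells, with exact binomial intervals. Without thinning the shares were 88.9%, 36.2%, 21.7% and 7.92%. S100a9 was seen in 99.1% of thinned high and 50.6% of thinned low cells, and in 0.0148% of WT cells.

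In droplet libraries free RNA adds UMIs of abundant genes to all cells, and the WT library cannot give that background because it holds almost none of the transcripts concerned. Set against the high cells, the low cells held 1.24% of the level of Auts2, 2.03% of S100a8, 2.06% of Stfa1, 2.60% of S100a9, 2.94% of Cd177, 3.42% of Krt8, 4.43% of Ceacam10, 4.56% of Bglap3, 19.8% of Epcam and 28.8% of Apoe. These percentages differed between genes. Those of Epcam and Apoe rested in part on the few cells rich in MHC class II RNA that are set apart below. Without such cells, low cells held 66.7 CPM of Epcam and 311 of Apoe, against 438 and 1907 in high cells. The S100a9 level of the 328 low cells without an S100a8 UMI was 337 CPM, close to the 331 CPM of all low cells. How much of the low cells' values came from free RNA was not tested.

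Zeb2 itself was examined as the targeted gene (chromosome 2: 44983632-45117395, minus strand). Its level was 552 CPM (543 to 561) in high cells, 429 (397 to 464) in between, 271 (261 to 282) in low cells and 312 (305 to 319) in WT AMs. The high cells, not the low ones, therefore had the highest count of Zeb2 3′ ends, with a log2 ratio of 1.02 that lay at the bound for a call and ran from 0.97 to 1.31 over the alternatives. The recombined allele keeps the 3′ end that these libraries count, so the value does not check the deletion in either class. In the study's own work on sorted AMs from mice with CRE, only EpCam+CD101+ cells had efficiently deleted Zeb2. EpCam-negative cells were heterozygous for the deletion by genomic PCR. In its single-cell data on AMs, the study took the main group with Epcam, Cd101 and higher Zeb2 as cells without ZEB2. It proposed that such cells may raise their truncated Zeb2 mRNA. A group without Epcam and Cd101 was taken as heterozygous. A minor group with Epcam, Cd101 and more MHC class II RNA was also taken as lacking ZEB2. How these populations and groups map onto the S100a8 classes was not tested, so Zeb2KO here names the library and not the state of each cell. The antisense gene Zeb2os lies at the same locus, and its reads cannot be told apart from those of Zeb2 if strand was not used in counting.

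12 genes that the study itself followed, Zeb2 and Epcam among them, were read in the same way, and 10 were considered, 6 called higher and 0 lower, against 3.55% and 4.67% of all genes. The study chose this panel on these samples, so the count is not independent evidence. Itgam, the integrin chain CD11b, was at 50.4 CPM in high cells, 24.4 in low cells and 0.763 in WT AMs, and its log2 ratio of 1.01 ran from 0.74 to 1.998 over the alternatives. Ms4a1, which encodes the B cell protein CD20, was at 31.8 CPM in high cells, 12.7 in low cells and 0.8 in WT AMs. Ripk3, a kinase of necroptosis, was at 30.6 CPM in high cells, 3.92 in low cells and 3.38 in WT AMs, a log2 ratio of 2.68, while Mlkl, the pore-forming protein downstream of it, stayed under the floor of 20 CPM in all of them (1.22 against 3.25 CPM). Il1b was called higher in high cells (1348 against 557 CPM), and Il1a was not (237 against 150.1 CPM, log2 ratio 0.65, 0.57 to 1.25 over the alternatives). Cd101, a glycoprotein of the immunoglobulin superfamily, was at 51.4 CPM in high cells, 28.1 in low cells and 16.1 in WT AMs, below a log2 ratio of 1 by total UMIs (0.85) and above it under TMM factors (1.13). The sort genes Itgax (CD11c) and Siglecf were at 490.2 against 518 CPM and 60 against 94.3 CPM, neither called, and Cd163 had 0 UMIs in high and 1 in low cells.

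Among genes of at least 50 CPM, the 15 with the highest ratios were S100a8, S100a9, Auts2, Stfa1, Cd177, Krt8, Bglap3, Ceacam10, Inhba, Krt18, Tarm1, Krt6b, Ly6c2, Oscar and Grap, in order of size apart from S100a9, which came after Auts2. Auts2, a gene best known from neuronal development, was at 108 CPM in high cells, 1.34 in low cells and 0.0364 in WT AMs (log2 ratio 5.54, 4.16 to 6.06 over the alternatives). Bglap3, a relative of the bone protein osteocalcin, was at 1837 CPM in high cells, 83.7 in low cells and 0.0364 in WT AMs. Inhba, which encodes the activin A subunit, was at 462 CPM in high cells, 21.6 in low cells and 5.67 in WT AMs. Tarm1 and Oscar, activating immunoglobulin-like receptors of myeloid cells that lie in 1 region of chromosome 7, were at 117 CPM in high cells, 6.27 in low cells and 0.0364 in WT AMs and at 50.8 CPM in high cells, 3.92 in low cells and 0 in WT AMs. Krt6b, a keratin, was at 73.4 against 5.49 CPM and Grap, an adaptor protein, at 73.96 against 6.83 CPM. WT AMs held 0, 0, 0 and 0 UMIs of Ceacam10, Stfa1, Krt6b and Oscar. Bglap3, Ceacam10, Stfa1, Krt6b and Ly6c2 have near-identical relatives, so their levels could depend on how the authors' counting treated reads shared between copies.

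Genes usually met in neutrophils were high in these cells without the genes that define that cell type. Of 22 neutrophil receptor and cytosolic genes, 14 reached 20 CPM and 10 of them were called higher and 0 lower (median log2 ratio 1.93, against -0.23 over all genes, of which 3.55% were called higher). Members such as Stfa1 and BC100530 reached 20 CPM in high but not in low cells, so this count is partly built in. Stfa1, a stefin and protease inhibitor, was at 92.5 CPM in high cells, 1.90 in low cells and 0 in WT AMs, and its relative BC100530 at 21.04 against 0.784 CPM, close to the floor and not called with thinned cells. Il1f9, an interleukin 1 family cytokine also called IL-36 gamma, was at 147 CPM in high cells, 14.5 in low cells and 0 in WT AMs. Cxcr2, a chemokine receptor of neutrophils, was at 232 CPM in high cells, 24.8 in low cells and 2.69 in WT AMs. The receptors Cxcr1 and Csf3r were at 132 against 29.4 CPM and 121 against 27.6 CPM, and G0s2, an inhibitor of lipid breakdown that neutrophils also express, at 899 against 153 CPM. Trem1, Clec4e, Fpr1 and Fpr2, receptors for danger and microbial signals, were considered and not called, with log2 ratios of -0.47 to 0.87.

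Of 16 genes for neutrophil granule proteins, 5 were considered, 4 called higher and 0 lower (median 2.51), against 3.55% and 4.67% of all genes with a median of -0.23. Cd177, Ceacam10 and Lcn2 reached 20 CPM in high but not in low cells, so this count is partly built in and is no support. Cd177, a neutrophil surface glycoprotein, was at 301 CPM in high cells, 8.85 in low cells and 0.0364 in WT AMs. Ceacam10, a secreted cell adhesion protein of the CEA family, was at 425 CPM in high cells, 18.8 in low cells and 0 in WT AMs. Lcn2, which withholds iron from bacteria, was at 95.6 CPM in high cells, 16.02 in low cells and 0.0727 in WT AMs, and the chitinase-like protein Chil3, also a gene of AMs, at 25249.9 CPM in high cells, 7947 in low cells and 5750.3 in WT AMs. The 10 defining markers differed from these: Elane, Camp and Ngp had 0 UMIs in either class, Ly6g had 12 in high and 0 in low cells, Mpo and Prtn3 had at most 1, Retnlg had 4 and 1, and Ltf stood at 4.49 against 0.896 CPM. Of the 10, 1 reached 20 CPM, the collagenase Mmp8, which was not called (60.6 against 52.3 CPM, and 21.7 CPM in WT AMs). Their summed level was 66.02 CPM in high, 55.6 in low and 22.6 in WT AMs.

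The other S100 genes are small calcium-binding proteins as well. Of 14 other S100 genes, 6 were considered, 0 were called higher and 1 lower, with a median log2 ratio of -0.25, against 8.22% called and a median of -0.23 over all genes. S100a6 was at 359 against 254 CPM and S100a11 at 1381 against 1313 CPM, neither called, and S100a4 was the member called lower, at 14.8 against 42.9 CPM.

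Epithelial genes formed a second group. Of 40 epithelial and junction genes, 16 were considered, 9 called higher and 0 called lower (median log2 ratio 1.33), against 3.55% higher, 4.67% lower and a median of -0.23 over all genes, and TMM factors raised the number called higher to 11. Krt8, Krt18, Hepacam2 and Tjp3 reached 20 CPM in high but not in low cells, so this count is partly built in and is no support. Krt8 and Krt18, which pair to form the keratin filaments of simple epithelia, were at 324 CPM in high cells, 11.1 in low cells and 0.254 in WT AMs and at 52.5 CPM in high cells, 2.02 in low cells and 0.109 in WT AMs. Hepacam2, an immunoglobulin-like adhesion protein, was at 86.5 against 11.9 CPM, and Tjp3, a scaffold of tight junctions also called ZO-3, at 37.7 against 5.38 CPM. Spint2, an inhibitor of serine proteases, Cd24a, Cldn1 and Plp2 were the other members called higher with Epcam, at 176, 409, 70.3 and 316 CPM in high and 41.1, 139, 25.2 and 135 CPM in low cells. Cdh1, the E-cadherin of adherens junctions, did not differ in this way (73.8 against 75.96 CPM, log2 ratio -0.04), nor did Krt19 (462 against 543 CPM). RNA of lung epithelial cells was level between classes: of 16 markers 3 were considered and 0 called, surfactant protein C (Sftpc) was at 24.6 CPM in high cells, 23.9 in low cells and 22.8 in WT AMs, and the markers' summed level was 114, 127 and 131 CPM.

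Since ZEB2 is known to bind the E-box CACCTG in promoters of epithelial genes, the promoters of the 2 genes that mark the high cells and of Epcam, Krt8 and Krt18 are shown here from RefSeq (GRCm38.p6, 250 bases before to 50 after the transcript start, read 5′ to 3′ on the strand of the gene). Capitals mark CACCTG or its reverse complement CAGGTG. The windows are chr3:90668821-90669120 (plus strand) for S100a8, chr3:90695672-90695971 (minus) for S100a9, chr17:87635729-87636028 (plus) for Epcam, chr15:102004293-102004592 (minus) for Krt8 and chr15:102027966-102028265 (plus) for Krt18.
S100a8: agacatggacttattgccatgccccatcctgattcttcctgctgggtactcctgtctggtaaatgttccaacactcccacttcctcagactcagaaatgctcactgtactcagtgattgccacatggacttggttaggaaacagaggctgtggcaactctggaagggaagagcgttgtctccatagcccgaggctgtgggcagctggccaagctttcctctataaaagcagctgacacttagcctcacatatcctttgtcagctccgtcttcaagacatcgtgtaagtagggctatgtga
S100a9: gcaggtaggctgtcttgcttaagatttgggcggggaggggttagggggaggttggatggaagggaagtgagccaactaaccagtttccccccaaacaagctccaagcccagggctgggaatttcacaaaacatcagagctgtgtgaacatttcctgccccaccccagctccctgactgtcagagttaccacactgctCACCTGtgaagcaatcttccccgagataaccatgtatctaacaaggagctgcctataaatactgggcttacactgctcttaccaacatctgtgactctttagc
Epcam: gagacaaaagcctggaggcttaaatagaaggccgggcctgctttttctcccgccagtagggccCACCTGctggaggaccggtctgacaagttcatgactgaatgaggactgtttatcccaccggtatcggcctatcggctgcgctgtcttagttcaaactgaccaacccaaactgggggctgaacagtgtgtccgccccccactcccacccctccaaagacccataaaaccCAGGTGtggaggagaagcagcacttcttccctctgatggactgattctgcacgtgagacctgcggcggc
Krt8: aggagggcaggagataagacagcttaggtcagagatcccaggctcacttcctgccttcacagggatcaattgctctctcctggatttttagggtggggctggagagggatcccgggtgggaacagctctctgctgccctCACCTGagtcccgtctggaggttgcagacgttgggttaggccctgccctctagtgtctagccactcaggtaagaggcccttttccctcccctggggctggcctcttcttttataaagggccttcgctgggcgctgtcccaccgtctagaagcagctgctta
Krt18: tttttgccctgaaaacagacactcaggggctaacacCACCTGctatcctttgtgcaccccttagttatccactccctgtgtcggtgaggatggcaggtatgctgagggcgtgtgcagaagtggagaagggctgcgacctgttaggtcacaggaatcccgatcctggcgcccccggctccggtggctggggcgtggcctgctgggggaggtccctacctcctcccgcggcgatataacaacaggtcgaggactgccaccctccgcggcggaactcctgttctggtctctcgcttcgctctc
These letters occur 0 times in the S100a8 window, 1 time each in those of S100a9 (first base at -53 from the transcript start), Krt8 (-111) and Krt18 (-214), and at -187 and -19 in that of Epcam. The same letters were in 20.2% of all 32851 promoter windows of the table and in 16.8% of the 5534 windows of genes considered. They were in 48 of 192 windows of genes called higher and 50 of 277 windows of genes called lower. Among epithelial and junction genes, 7 of 8 windows of members called higher held them, as did 3 of 5 of members considered and not called and 12 of 20 of members under 20 CPM. The letters were thus common in windows of this list, also among members not called higher. Members under 20 CPM were not compared between the classes. A match of letters is a description and does not show binding.

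AM identity genes differed in both directions. All 36 genes of the list were considered, 8 were called lower and 3 higher in high cells (median log2 ratio -0.30), against 4.67% and 3.55% of all genes with a median of -0.23. Ear1, an eosinophil-associated ribonuclease, was at 47.1 CPM in high cells, 562 in low cells and 1100.2 in WT AMs, and Cpne5, a copine, at 1.71 CPM in high cells, 39.8 in low cells and 204 in WT AMs. Rab44, a small GTPase, was at 2.45 against 25.9 CPM, and Gm9844, whose reads may belong to a related gene, at 1.97 against 38.2 CPM. Against this, Car4, a membrane carbonic anhydrase, was higher in high cells (912 CPM in high cells, 298 in low cells and 525 in WT AMs), as was the fatty acid binding protein Fabp5 (1819 CPM in high cells, 788 in low cells and 731 in WT AMs), while its relative Fabp1 was lower (139 CPM in high cells, 926 in low cells and 939 in WT AMs). The lineage factor Pparg (92.3 against 87.6 CPM), the receptors for GM-CSF Csf2ra and Csf2rb (95.9 against 88.7 CPM and 294 against 236 CPM) and the scavenger receptor Marco (632 against 528 CPM) were not called. Ear1 has near-identical relatives among the Ear genes.

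The core genes of macs were called about as often as all genes (8.22%). All 12 were considered, and 1, the lipopolysaccharide co-receptor Cd14, was called higher (809 against 364 CPM, list median 0.17). The log2 ratios of the list ran from -0.83 for the receptor Csf1r (30.4 against 54.8 CPM) to 1.15 for Cd14. Fcgr1 (CD64) was at 40.1 against 23.9 CPM, Adgre1 (F4/80) at 161 against 126 CPM, Mertk at 142 against 152 CPM and Lyz2 at 23455 against 17229 CPM.

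The 15 genes with the lowest ratios were led by Tmsb10, which encodes the actin-binding peptide thymosin beta 10. Tmsb10 was at 101 CPM (97.7 to 105) in high cells, 1419 in between, 2108 (2078 to 2138) in low cells and 3905 in WT AMs, so that low cells held 20.8 times the level of high cells. After thinning it was seen in 13.6% of high, 90.9% of low and 99.6% of WT cells. The C-type lectin genes Clec4b1 and Clec4a2 followed, at 2.56 CPM in high cells, 60.9 in low cells and 61.3 in WT AMs and at 8.16 CPM in high cells, 136 in low cells and 208 in WT AMs. Kazald1, a secreted protein with a Kazal domain, was at 10.7 CPM in high cells, 158 in low cells and 174 in WT AMs. Cyth4, Gmpr and Sulf2 were at 8.79 against 100.4 CPM, 10.8 against 104 CPM and 10.7 against 99.5 CPM, with 135, 118 and 248 CPM in WT AMs. Together with Ear1, these were genes for which the low cells lay between the high cells and WT AMs or next to WT AMs. Spag11b, a defensin-like gene of a family of close relatives, was different, with 192 CPM in low cells and only 25.5 in high cells and 7.67 in WT AMs. The 15 also held Ifitm2, C1qa, C1qb, C1qc and H2-Eb1.

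Genes of MHC class II antigen presentation and of complement C1q were lower in high cells, and several of them rested on a small set of low cells. Of 10 MHC class II genes, 6 were considered and all 6 called lower (list median -2.47), with H2-Ab1 at 49.4 CPM in high cells, 335 in low cells and 36.8 in WT AMs, H2-Eb1 at 23.9 against 177 CPM, H2-Aa at 49.9 against 309.8 CPM and H2-DMa at 41.01 CPM in high cells, 212 in low cells and 276 in WT AMs. Of 12 C1q and interstitial macrophage markers, 6 were considered, 5 called lower and 1 higher (median -2.51). C1qa, a chain of the first complement component, was at 21.9 CPM in high cells, 181 in low cells and 0.0727 in WT AMs (2 UMIs in WT AMs), and C1qb, C1qc and Ms4a7 at 15.3 against 115 CPM, 13.2 against 108 CPM and 10.7 against 52.3 CPM. Over all genes, 4.67% were called lower and 3.55% higher, with a median log2 ratio of -0.23. Lyve1, a hyaluronan receptor of lymphatic vessels and of some macs, was the member called higher (21.4 CPM in high cells, 0.896 in low cells and 0.473 in WT AMs).

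Cells in which Cd74, H2-Aa, H2-Ab1 and H2-Eb1 held 0.3% or more of UMIs made up 101 low cells (5.09%), 68 high cells (1.74%) and 74 WT AMs (1.06%). In the low class these cells held 125 CPM of Ms4a1, 1871 CPM of C1qa, 3279.9 of Apoe, 4026 of Spp1, 312 of Epcam and 178 of Itgam. The other 1885 low cells held 2.68, 30.99, 311, 670.2, 66.7 and 10.7 CPM of the same genes. MHC class II cells of the high class held 806 CPM of C1qa and 437 of Epcam, with less Bglap3 (607 CPM) than the other high cells (1863). WT cells past the same bound held 0 CPM of C1qa and 143 of the B cell gene Cd79a, against 37.1 of Cd79a in the low class.

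Without these cells, 3 MHC class II genes were considered and 2 called lower, and the calls of H2-Aa, H2-Ab1, H2-Eb1 and Ms4a7 were among those lost. H2-Aa (5.69 against 13.5 CPM, log2 ratio -1.12) and Ms4a7 (5.65 against 18.2 CPM, -1.53) were still past the bound and only went under the floor of 20 CPM. Low cells then held 15.1 CPM of H2-Ab1 and 4.88 of H2-Eb1, which along with Cd74 and H2-Aa had picked the cells. H2-DMa, which had not, was at 37.7 against 195 CPM, nearly as before, and Cd74 turned from 292 against 1288 CPM to 105 against 66, not called. C1qa then stood at 4.97 CPM in high and 30.99 in low cells and was still called. The Epcam ratio was larger without them, at 2.70 on the log2 scale with 66.7 CPM left in low cells, and the Itgam ratio went from 1.01 to 1.998 with 10.7 CPM in low cells. Il1a passed the bound (233 against 97.5 CPM, log2 ratio 1.25), and the log2 ratios of Ms4a1, Lcn2, Apoe, Cd14, Hepacam2 and Tarm1 went up to 3.14, 3.63, 2.61, 1.76, 3.52 and 4.71. The counts over all genes were 230 higher and 282 lower.

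Of the secreted factors, the lists are set here against 3.55% of all genes called higher, 4.67% called lower and a median log2 ratio of -0.23. For 21 chemokine genes there were 3 of 9 considered members called higher and 1 called lower (median log2 ratio 0.26). Ccl6 was at 11103 against 4896 CPM, Ccl3 at 1263 against 536 CPM and Ccl9 at 237 against 111 CPM, whereas the monocyte attractant Ccl7 was at 42.3 against 162 CPM, a call that was lost without the MHC class II cells. There the chemokine count was 5 higher and 0 lower, with Cxcl16 (83.7 against 15.98 CPM) and Ccl4 (363 against 173) passing the bound. Among 19 cytokine and growth factor genes there were 3 of 10 considered members called higher and 2 called lower (median 0.42). Next to Inhba and Bglap3, the neuropeptide galanin (Gal) was higher (513 against 229 CPM), while osteopontin (Spp1) was lower (144 CPM in high cells, 944 in low cells and 567 in WT AMs), as was Tnf (44.5 CPM in high cells, 98.03 in low cells and 264 in WT AMs), a call that was lost under TMM factors (-0.83), with thinned cells and without the MHC class II cells (-0.95). The cytokine count was 4 higher and 1 lower both under TMM factors and without those cells. In the interleukin 1 and cell death list there were 4 of 21 considered members called higher and 0 called lower (median log2 ratio 0.20). Beside Il1b, Il1f9 and Ripk3 these included Zbp1, a sensor of nucleic acids that acts on RIPK3 (26.6 against 11.99 CPM, not called with 5 CPM added), while Casp8 (109 against 96.01 CPM), Nlrp3 (151 against 126 CPM) and Mcl1 (481 against 570.5 CPM) were not called.

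In the list of TGF-beta, BMP and ID genes there were 4 of 16 considered members called higher and 1 called lower (median log2 ratio -0.24), against 3.55% and 4.67% of all genes with a median of -0.23. Id1 and Id2, which block the DNA binding of helix-loop-helix factors, were at 539 CPM in high cells, 155 in low cells and 76.1 in WT AMs and at 1144 CPM in high cells, 442 in low cells and 163 in WT AMs. The BMP receptor Bmpr1a was at 23.7 against 8.40 CPM, and Tgfbi, a matrix protein induced by TGF-beta, was at 174 against 362 CPM, lower by a log2 ratio at the bound (-1.06) that lay inside it under TMM factors (-0.76). The receptors Tgfbr1 and Tgfbr2 were at 77.9 against 109 CPM and 184 against 185 CPM and not called. Of 32 transcription factor genes, 23 were considered, 2 called higher (Zeb2 and the co-regulator Cited2, 242 against 88.1 CPM) and 4 lower, with a median of -0.14. The latter included Egr2 (59.7 CPM in high cells, 174 in low cells and 402 in WT AMs), Egr1 (54.7 against 116 CPM) and Cebpb (241 CPM in high cells, 504 in low cells and 1285 in WT AMs), of which Egr1 and Cebpb were not called under TMM factors. Egr1 was also not called with the mean of cell shares, with thinned cells and without the MHC class II cells (46.4 against 67.7 CPM, log2 ratio -0.53), nor Cebpb with the stricter bounds on S100a8. The transcription factor count was 3 higher and 2 lower under TMM factors and 3 higher and 2 lower without the MHC class II cells. Spi1, the master factor of the lineage also known as PU.1, was at 391 against 432 CPM, and Nr1h3, the liver X receptor LXR alpha, at 55.1 against 38.7 CPM.

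Among genes of lipid handling there were 5 of 23 considered members called higher and 1 called lower (median log2 ratio -0.30), against 3.55% and 4.67% of all genes with a median of -0.23. Apolipoprotein E (Apoe) was at 1921 CPM in high cells, 554 in low cells and 13.9 in WT AMs, and the enzymes Scd1, which desaturates fatty acids, and Dgat2, which completes triglycerides, at 147 against 50.3 CPM and 160.1 against 54.2 CPM. Scd2, a second desaturase, was the member called lower (26.1 against 85.03 CPM). The cholesterol exporter Abcg1 (739 against 911 CPM) and lipoprotein lipase Lpl (1583 against 1967 CPM) were not called. Of 24 lysosomal genes 1, the thioesterase Ppt1, was called (350.1 against 149 CPM), with a list median of 0.37 that lay above that of all genes. Scavenger and pattern receptors gave 2 of 18 considered members called higher and 5 called lower (median -0.13). The glycoprotein Gpnmb was at 597 CPM in high cells, 269 in low cells and 99.5 in WT AMs, while Clec4a3, the scavenger receptor Msr1 and the sialic acid receptor Siglece were at 30.1 against 114 CPM, 4.42 against 21.1 CPM and 6.87 against 20.3 CPM. Msr1 and Siglece lay close to the floor of 20 CPM and were not called under TMM factors, although their log2 ratios of -1.76 and -1.17 were past the bound. Msr1 was also not called with the mean of cell shares, with thinned cells and without the MHC class II cells, nor Siglece with the stricter bounds or with classes set on S100a9. Under TMM factors the receptor count was 2 higher and 2 lower.

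The next lists also stand against 3.55% of all genes called higher and 4.67% called lower. In the list of oxidative stress and heat shock genes, the glutathione transferase Gstm1 was the 1 member called, at 886 against 395 CPM, of 18 considered with a median log2 ratio of -0.37. Of 14 immediate early genes considered, Ier3 was called higher (304 CPM in high cells, 103 in low cells and 33.8 in WT AMs) and Egr1 and Egr2 lower (median 0.05), while Fos (1990.2 against 1661 CPM) and Jun (160.4 against 168 CPM) were not called. The immediate early count was 2 higher and 1 lower both under TMM factors and without the MHC class II cells. Of 7 interferon-stimulated genes considered, 3 were called lower and 0 higher (median -0.49), and 2 higher and 3 lower under TMM factors. These were Ifitm2 (4.34 CPM in high cells, 65.99 in low cells and 22.7 in WT AMs), Ifitm3 (7.61 against 49.3 CPM) and Ifi27l2a (19.4 against 108 CPM). Of 7 integrin genes considered, Itgam alone was called (median 0.30).

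Many genes of cell division were lower in high cells. Of 22 such genes 14 were considered, 8 called lower and 0 higher (median log2 ratio -1.05, and -0.77 with 5 called lower under TMM factors), against 4.67% and 3.55% of all genes with a median of -0.23. Without the MHC class II cells 13 of 16 considered were called lower. The survivin gene Birc5, active in mitosis, was at 18.9 CPM in high cells, 73.2 in low cells and 29.6 in WT AMs, the cyclin Ccnb2 at 12.5 against 48.8 CPM, and Stmn1 and Hmgb2 at 74.4 against 244 CPM and 102 against 265 CPM. After thinning, 3 or more UMIs of 8 mitotic genes were found in 1.85% of high cells (1.45 to 2.32), 6.02% of low cells (4.999 to 7.18) and 2.62% of WT AMs (2.25 to 3.03). Without thinning these shares were 3.17%, 8.31% and 3.19%. Of 7 cyclin and CDK genes considered, Cdk4 was called lower (20.3 against 68.5 CPM) and 0 higher (median -0.36).

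Of 80 nuclear genes of oxidative phosphorylation, 3 (3.75%) were called lower, below the 4.67% of all genes, and 0 higher, with a median log2 ratio of -0.43 against -0.23. Ndufa4 was at 213 against 717 CPM and Cox6b2, not called under TMM factors (-0.93), at 47.5 against 112 CPM. The third, Cox6a2, was at 10.9 against 24.9 CPM, and its log2 ratio of -1.11 turned to 0.94 without the MHC class II cells. Of 96 genes for cytosolic ribosomal proteins and 12 mitochondrially encoded genes, 0 were called, with medians of -0.08 and -0.05.

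**Figure D3:**
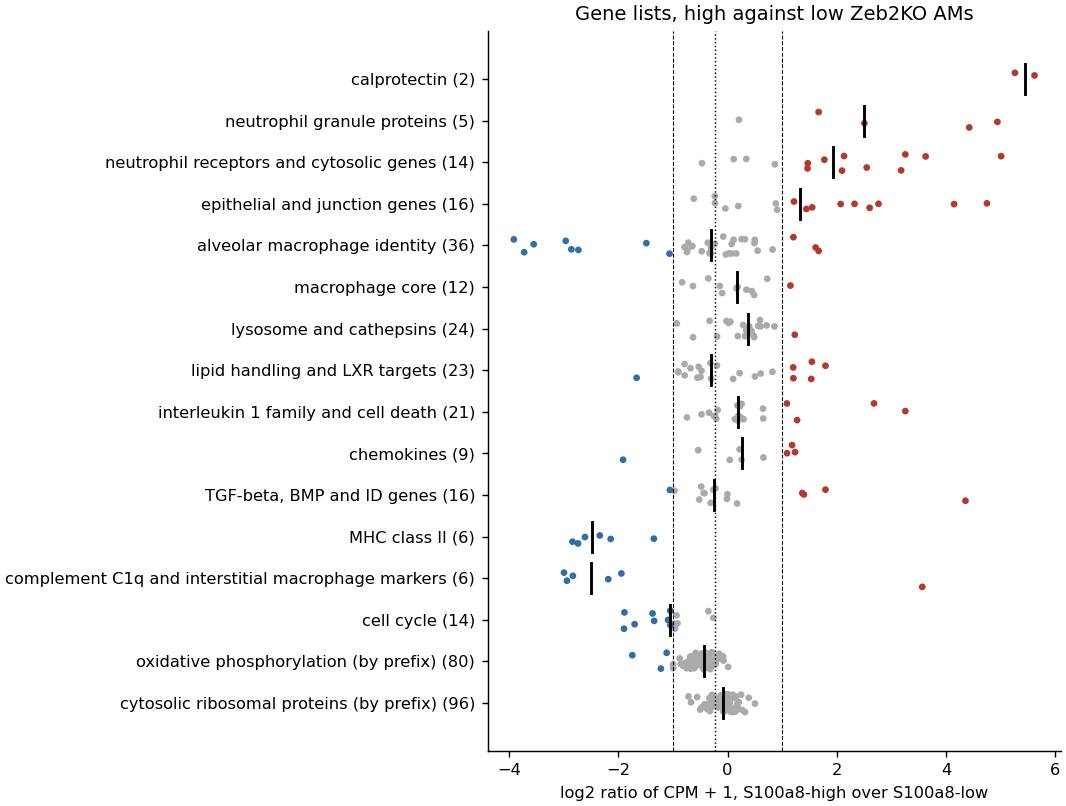
Log2 ratio of CPM plus 1 between S100a8-high and S100a8-low Zeb2KO AMs (x axis) for the considered members of 16 gene lists (rows, number of members in brackets), with members called higher in red, called lower in blue and not called in grey. Short black bars are list medians, the dotted line is the median of all genes considered (-0.23) and dashed lines are the bounds for a call, and the neutrophil and epithelial lists lie mainly to the right, the MHC class II and cell cycle lists to the left.

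Markers of other cell types were near 0 in both classes with few exceptions. For T and NK cells, dendritic cells, B cells, granulocytes other than neutrophils, endothelium and stroma, and red cells, 0 of 40 markers measured reached 20 CPM, and the summed level of each of these lists was at most 7.68 CPM in high and 29.02 CPM in low cells. The largest of these were endothelial and stromal markers in low cells, mainly Cldn5 (152 UMIs in low and 12 in high cells). Ms4a1, the gene of the B cell protein CD20 whose higher levels are given above, was not among the B cell markers counted. Of 11 monocyte markers, 3 were considered. Ly6c2 was called higher (74.7 against 5.83 CPM) and Plac8 lower (3.67 against 31.5 CPM), the defining receptor Ccr2 stood at 11.7 against 9.63 CPM, and the list's summed level was 364 CPM in high and 466 in low cells. The part of these cells in the results was not tested. Of 5 sex-linked genes 2 were considered and 0 called. Y-linked genes were present at like levels in both classes (Ddx3y 89.2 against 91.1 CPM, Eif2s3y 56.7 against 63.5 CPM) and Xist had 0 UMIs in high and 0 in low cells.

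How 21 genes picked for display varied with the S100a8 share was read in bins of cells. S100a9 was higher in each further bin of the high class, from 4336 CPM at 0.3 to 0.5% to 28769 at 4% or more, and Ceacam10 likewise, from 297 to 585. Epcam went from 77.9 CPM in cells without an S100a8 UMI and 85.7 at 0.05 to 0.1% to 322 at 0.2 to 0.3%, 389 at 0.5 to 1% and 479 at 3 to 4%. Krt8 went from 9.63 through 263 to 399.7 CPM over the same bins. For Epcam and Krt8 most of the difference lay between 0.1 and 0.3%, where the 305 cells of 0.1 to 0.2% were shallow (median 2931 UMIs) and the 76 of 0.2 to 0.3% were nearly as deep as the high cells (median 5782). Inhba and Zeb2 peaked near the lower edge of the high class: Inhba was at 686 CPM at 0.2 to 0.3%, 725 at 0.3 to 0.5% and 348 at 4% or more, and Zeb2 at 599, 627 and 426. Tmsb10 was lower towards the top of the high class, going from 338 CPM at 0.3 to 0.5% to 28.6 at 4% or more, and Stmn1 from 94.3 to 28.6 CPM. Chil3 was higher towards the top, going from 19846 to 30851 CPM. Among the cells left out, 183 of the 195 genes called higher and 217 of the 257 called lower had a level between those of the low and the high class. The share over all genes was not computed. These genes were picked for their gap and the cells lie between by the rule, so such counts are largely built in.

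**Figure D4:**
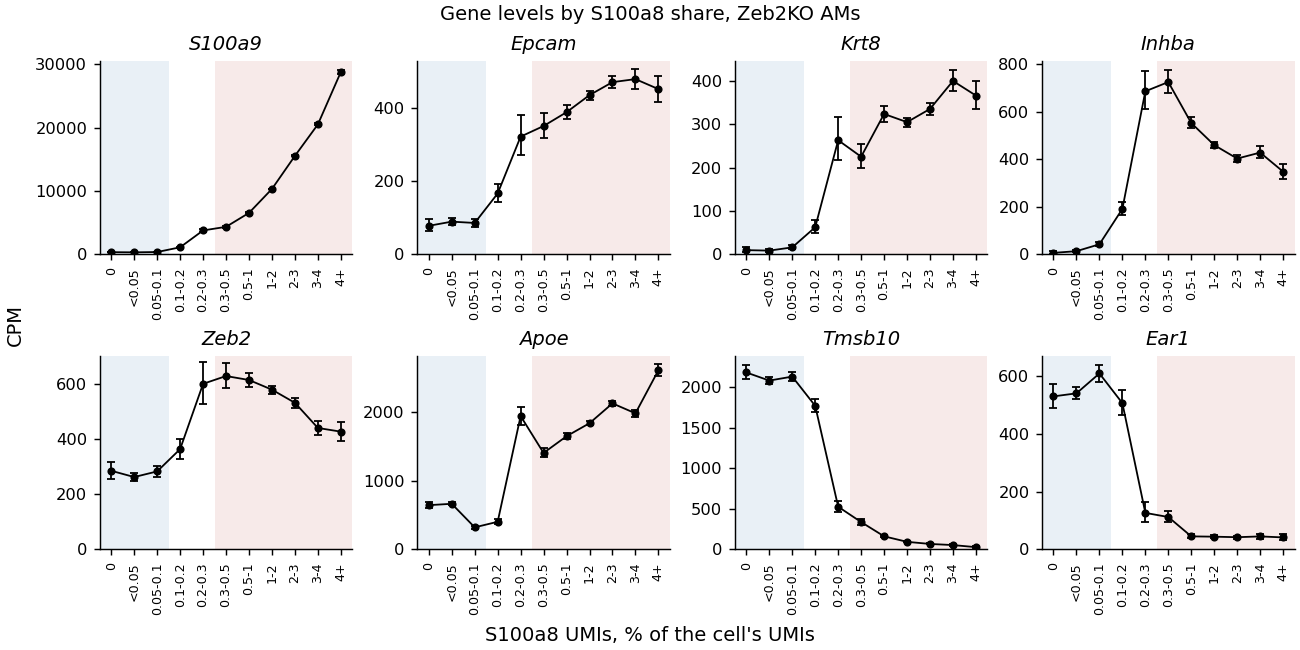
Level of 8 genes (y axis, CPM with exact Poisson 95% intervals) in Zeb2KO AMs binned by the share of S100a8 in their UMIs (x axis, %), with the low class shaded blue and the high class red. S100a9 follows S100a8 across the high class, Epcam and Krt8 step up and Tmsb10 and Ear1 step down between 0.1% and 0.3%, and Inhba and Zeb2 are highest near the lower edge of the high class.

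Each class was also set against the WT AM library, which asks how far either class lay from cells without CRE. Of 5835 genes considered, 1037 (17.8%) were called between high cells and WT AMs, 305 higher (5.23%) and 732 lower (12.5%). Of 5770 genes 218 (3.78%) were called between low cells and WT AMs, 124 higher (2.15%) and 94 lower (1.63%). The direction of these calls depended on scaling. With TMM factors 499 were higher and 300 lower in high cells (62.5% higher, against 29.4%), and 135 and 64 in low cells (67.8% against 56.9%). Both comparisons share the WT library, and a difference of the genotype cannot be told apart from one of the library.

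The summed levels of low cells differed from those of WT AMs as well. How much of this came from free RNA of high cells in the same library was not tested. Of the 195 genes called higher in high than in low cells, 159 were lower in WT AMs than in low cells by any amount, against 39.2% of all genes considered. At 1 CPM or less in WT AMs were 37 of the 195, against 0.8% of all genes considered. Genes this low in WT AMs were considered only because they reached 20 CPM in a Zeb2KO class, so this second contrast is partly built in and is no support. Apoe stood at 554 CPM in low cells and 13.9 in WT AMs, Bglap3 at 83.7 and 0.0364 (1 UMI), Itgam at 24.4 and 0.763, and Scd1 at 50.3 and 6.22. Without the MHC class II cells of both libraries, Apoe stood at 311 and 13.6 CPM and Itgam at 10.7 and 0.736. Of the 257 genes called lower, 159 were higher in WT AMs than in low cells by any amount. This share was close to the 60.8% of all genes considered, so it is no trait of the genes called lower. The 159 include Tmsb10, Ear1, Cpne5, Sulf2 and Egr2. Kazald1 and Clec4b1 were at nearly the same level in low cells and WT AMs (158 and 174, 60.9 and 61.3 CPM). For C1qa, H2-Ab1, Spag11b and Ccl7 the low cells were above both the high cells and WT AMs. For H2-Ab1 this rested on the MHC class II cells, without which low cells held 15.1 CPM and WT AMs 22.8.

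**Figure D5:**
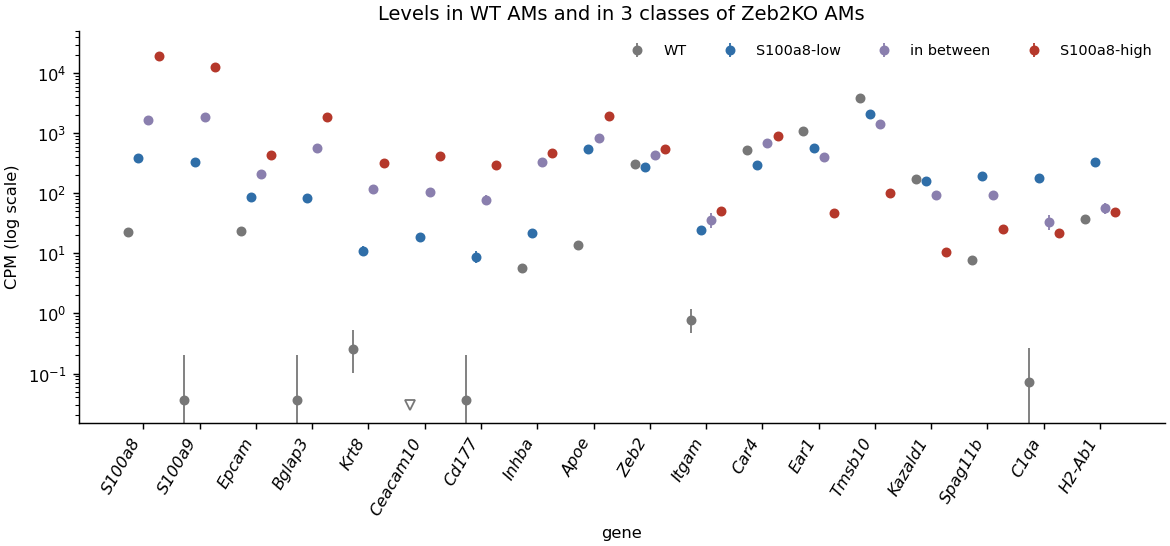
Level of 18 named genes (x axis) in CPM on a log scale (y axis) in WT AMs (grey) and in low (blue), in-between (purple) and high (red) Zeb2KO AMs, with exact Poisson 95% intervals and an open triangle for no UMI. Low cells lie between WT AMs and high cells for genes such as Epcam, Krt8 and Ear1, and above both for Spag11b, C1qa and H2-Ab1, for H2-Ab1 only with the MHC class II cells included.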

How the data were processed

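The authors processed the reads with Cell Ranger on the mm10 genome (the methods give 1 version for lung and liver libraries and another for the other tissues), and the deposited values are raw counts of UMIs for 27998 genes per cell barcode. The barcodes, 6583 for Zeb2KO AMs, equalled the cell numbers of the labels. Cells were dropped when their log UMIs or log genes lay over 3 median absolute deviations from the library's median, or their mitochondrial percentage lay that far above it. Counts were summed per class, scaled to CPM computed here, and compared as log2 ratios after 1 CPM was added. The sums were 26947760 UMIs in high, 8926071 in low and 27510014 in WT cells, and the exact Poisson 95% interval of a gene considered had a median half-width of 5.71% of its value in high and 9.35% in low cells. Each group had 1 library, so no test was made. The genes named were the 3 markers, a panel from the study, the 15 highest and 15 lowest ratios at 50 CPM or more, and up to 4 called genes per direction of each of 37 lists; other list members are named as not called or for background after their values were seen. Some genes that the rule named are not reported here. The members and lists were chosen with earlier results of these data known. Scrublet (scanpy 1.11.5) called 0 doublets and so had not worked, and removal of the 5% highest scores, which took 7.70% of high and 1.31% of low cells, was an alternative only. TMM factors came from edgeR 4.0.16 (R 4.3.3), intervals from scipy 1.17.1 (Python 3.11.15). The summing and calling was tested on simulated data. Gene coordinates are those of GENCODE M21.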

Additional observations from a re-analysis of the deposited data

Results flagged for a closer look

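S100a8 was also looked at in the tissues that the comparisons above do not use, after the same cell filter. In 3 of the 4 other tissues its level in the Zeb2KO library lay above that of the WT library with exact Poisson 95% intervals that did not overlap, which is why the values are given here. It was 2.67 CPM (2.18 to 3.24) against 0.353 (0.202 to 0.574) in colonic macs, 2.46 (1.92 to 3.09) against 1.27 (0.876 to 1.79) in Kupffer cells, and 1.42 (0.909 to 2.11) against 0.162 (0.0196 to 0.586) in microglia. These levels rest on 24 to 102 UMIs in the Zeb2KO libraries, in 0.432% to 0.72% of cells. In the WT libraries the share of cells was 0.328% for colonic macs, 0.647% for Kupffer cells and 0.0707% for microglia. For Kupffer cells it was thus close to the 0.72% of the Zeb2KO library. The 102 UMIs of Zeb2KO colonic macs lay in only 24 cells. The wild-type liver library with loxP-flanked Nr1h3 alleles stood at 3.53 CPM, above the Zeb2KO liver library. In splenic macs the WT library was the higher, at 141 against 104 CPM. All of these differences are between single libraries and were not tested.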

How the results depend on the processing

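Bounds of 0.5% and 0.05% left 1291 low cells. Of the genes called between high and low cells, TMM factors gave 315 higher and 132 lower, including all 195 calls higher by total UMIs and 132 of the calls lower. A floor of 5 CPM gave 886 (345 higher, 541 lower), a floor of 50 CPM 239 (117, 122), no floor 1233 (446, 787) and a log2 bound of 2 gave 120 (63, 57), by fewer or more genes passing. The other alternatives gave 173 to 230 higher and 199 to 309 lower, and no gene was called in opposite directions in any. Against WT AMs, TMM factors gave 499 higher and 300 lower for high cells, and a floor of 50 CPM 618 (195, 423) for high and 130 (72, 58) for low cells. Of 94 named genes called, 0 to 10 lost their call under an alternative, most without the MHC class II cells, where the log2 ratio of Cox6a2 turned from -1.11 to 0.94, for a cause that was not tested. Unthinned, Epcam was seen in 88.9% of high and 21.7% of low cells, an alternative chosen after seeing the data. Depth limited the precision in the low class more than in the high class. No paired analysis was possible because each group had 1 library and the classes came from the same one.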

Other observations

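WT AMs held S100a8 without its partner. Summed over the filtered cells of the WT AM library there were 628 UMIs of S100a8, in 528 cells, and 1 UMI of S100a9. In the Zeb2KO AM library the same sums were 529854 and 349412, in WT splenic macs 1494 and 1079, and in Zeb2KO splenic macs 1228 and 786. Zeb2KO microglia held 24 and 0, WT colonic macs 16 and 0, and Zeb2KO Kupffer cells 72 and 9.

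At an equal depth of 2000 UMIs, high cells held fewer different genes than the other AMs, with a median of 945 genes per high cell, 1030 per low cell and 1089 per WT AM. In the cells between the bounds, the heat shock gene Hspa1a was at 404 CPM against 63.1 in low and 55.9 in high cells, and Hspa1b at 199 against 21.6 and 16.7. Both were picked out after their values were seen, and the summed level of the list they belong to, at 57205 CPM, lay between those of low (51248) and high cells (59718).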
